A study of Rattus norvegicus with 27 samples.

Results

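Genes for 9 factors that support neurons or their targets were followed in the cell mRNA libraries: Bdnf, Ntf3, Gdnf, Artn, Nrtn, Cntf, Lif, Shh and Vegfa. They were found by gene name, and all 9 were among the 17315 genes of the count table. The libraries came from purchased primary rat Schwann cells, the glia of peripheral nerve, cultured at 3 stages with 3 biological replicates each, and are 9 of the 27 libraries of the series. Undifferentiated cells were the control and were grown without dibutyryl cyclic AMP (dbcAMP), a form of the second messenger cyclic AMP that enters cells; their medium is otherwise not described. Differentiated cells were kept for 72 h with 1 mM dbcAMP in DMEM with a low level of exosome-depleted serum. Dedifferentiated cells had that treatment and then 72 h without dbcAMP in a complete medium with more serum, forskolin (an activator of adenylyl cyclase) and neuregulin. Stage and medium therefore changed together, and their parts in any difference cannot be told apart. No stage is labelled as a repair cell, and all samples are cultured cells, not nerve. Nothing says whether the replicates came from separate animals, so the p-values measure the spread between these cultures or preparations.

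After a nerve is cut, Schwann cells lose contact with axons, switch off myelin genes and become repair cells, which clear myelin, form tracks for regrowing axons and secrete factors that keep the injured neurons alive. These factors belong to several families. Neurotrophins, such as BDNF and NT-3, act through Trk receptor kinases and the p75 receptor. GDNF, artemin and neurturin bind GFR-alpha co-receptors that signal through the kinase RET. CNTF and LIF are cytokines that share the receptor subunit gp130, Sonic hedgehog signals through Patched and Smoothened, and VEGF-A acts mainly on blood vessels. In cultured Schwann cells, raised cyclic AMP is used to mimic the axonal signal that drives myelin differentiation.

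Because dbcAMP was the agent that defined the stages, the sequence before the transcription starts of the genes was searched for sites of cyclic AMP-responsive factors. RefSeq promoters (build GRCr8) matched 7 of the 9 genes, at 15 starts, and the 250 bases before each start were read on both strands. The full cyclic AMP response element, TGACGTCA, was in 1.59% of all 33469 promoters and before none of the 15 starts. Its short core, TGACG, which the full element contains, was in 18.2% of all promoters. It lay before the only listed start of Gdnf, before 1 of the 6 starts of Bdnf and before the only listed start of Artn. It lay before no listed start of Cntf, Nrtn, Ntf3 or Vegfa. Whether the core was more frequent before these 15 starts than in all promoters was not tested. The AP-1 element TGANTCA was in 6.34% of promoters and lay before 1 start of Bdnf and the start of Cntf. The 100 bases before the Gdnf start and before the Bdnf start with the core are shown, since these were the genes of the set that differed most between stages. Both are on the plus strand, written 5′ to 3′ and ending at the base before the start, and the capitals mark CGTCA, the core read on the opposite strand.
Gdnf, chr2:58621227-58621326: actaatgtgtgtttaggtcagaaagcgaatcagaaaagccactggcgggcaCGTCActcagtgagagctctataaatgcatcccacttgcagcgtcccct
Bdnf, chr3:116637758-116637857: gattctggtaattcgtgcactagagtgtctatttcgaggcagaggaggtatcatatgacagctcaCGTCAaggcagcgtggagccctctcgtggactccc
The first base of the match was at -49 for Gdnf and at -35 for Bdnf, counted from the start. A match is a run of letters, not a site shown to be used, and gene-level counts do not show which Bdnf start gave the mRNA.

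Totals were between 10058735 and 16212278 estimated counts per library, and 11282 to 11833 genes were detected. Levels are given as CPM, the count of a gene scaled to a common library total, and 3 counts corresponded to 0.185 to 0.298 CPM. CPM has no correction for gene length, so levels are compared between stages and not between genes. All 8 Schwann cell markers in the table, among them Sox10, S100b and Erbb3, were over 1 CPM at every stage, and their summed level was 8496 to 9674 CPM in undifferentiated, 8891 to 11730 in the differentiated and 19320 to 22240 in dedifferentiated libraries. The 8 fibroblast markers summed to 24400 to 29130, 12010 to 15680 and 16040 to 19580 CPM in the same order, nearly all from Col1a1 and Col1a2, while Lum was at 0 in every library and Dcn, Dpt and Pdgfra were at mean levels of 0.546 CPM or less. The fibroblast marker Col3a1 averaged 53.2, 92.0 and 147 CPM in this order. Summed markers of leukocytes (8 genes) reached 5.33 CPM, those of endothelium (6 genes) 8.26 CPM and those of pericytes (6 genes) 13.3 CPM. Aif1, Adgre1, Cdh5, Cldn5, Rgs5 and Kcnj8 were at 0 throughout. Means in the same order were 0.724, 3.41 and 1.36 CPM for Cd68 and 0, 0.710 and 0.718 for Csf1r. Those of Tek were 1.26, 6.6 and 5.23 CPM, and those of Acta2 3.16, 0.199 and 7.30. Myh11, at 4.19, 3.91 and 3.35 CPM, had no comparison called. The 6 neuron markers summed to 118.8 to 284.4, 496 to 641 and 170.6 to 207.5 CPM, almost all of it Nefm. These sums moved with stage, and their part in the results that follow was not tested. In bulk RNA, fewer cells making a factor and less mRNA per cell cannot be told apart.

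Of the trophic factor genes tested, all but Vegfa had a negative change under dbcAMP and a positive change on dedifferentiation, though not all were called. On dedifferentiation the changes of Lif (0.08, SE 0.39) and Artn (0.14, SE 0.58) were smaller than their standard errors. Their sign reversed in 4 of 17 alternative analyses for Lif and in 3 of 16 for Artn, so their direction there is not settled. Counts were compared with edgeR's quasi-likelihood test with Benjamini-Hochberg adjustment over the 10372 genes that passed a filter on low counts, and a gene was called at an adjusted p under 0.05. Of the 9 genes, 8 passed the filter; Ntf3 had 0 counts in every library and was the only gene of the set below 1 CPM throughout. Between differentiated and undifferentiated cells, 5 of the 8 fell (Bdnf, Gdnf, Artn, Lif and Shh) and Vegfa rose, against 27.9% of all tested genes called lower and 31.7% called higher. On dedifferentiation 4 of the 8 rose (Bdnf, Gdnf, Shh and Cntf) and none was called lower, against 23.2% of all genes called in either of these directions; Vegfa was the only gene of the set with a negative change there (unadjusted p = 0.0336 in edgeR, adjusted p = 0.0592 by DESeq2's Wald test, which also called none lower). Dedifferentiated cells compared with undifferentiated cells had Shh higher and Bdnf lower, with 16.1% and 13.3% of all genes called in those directions. The median log2 change of the 8 genes was -0.99, 1.22 and -0.34 in the 3 comparisons in this order, beside 0.05, -0.01 and 0.02 over all tested genes. Libraries of the stages compared did not overlap for 5 of the 8 genes in each comparison, where 66.3%, 58.5% and 43.9% of all genes did not overlap. The comparisons share libraries and are not independent of each other.

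**Figure D1:**
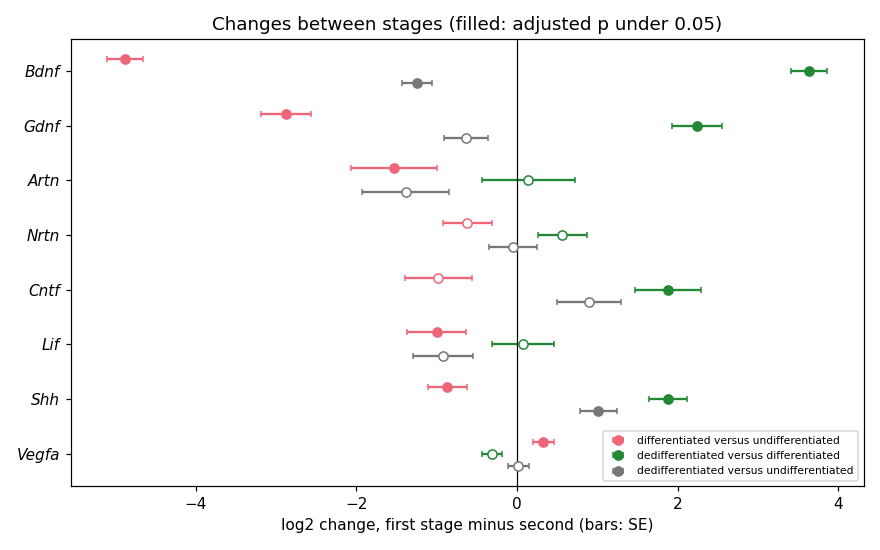
Changes between stages for the 8 tested genes, as log2 fold change on the x axis (first stage minus second) with bars of 1 standard error; filled points passed an adjusted p under 0.05. Bdnf and Gdnf show the pair of widest opposite changes, -4.88 and 3.64 for Bdnf and -2.88 and 2.24 for Gdnf, whereas Vegfa stays between -0.31 and 0.33.

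Bdnf, the neurotrophin that signals through TrkB and supports motor and some sensory neurons, had the steepest change of the set. Its level was 95.4, 67.5 and 63.9 CPM in undifferentiated replicates 1, 2 and 3, then 2.06, 2.86 and 3.08 in the differentiated and 38.7, 28.9 and 31.6 in dedifferentiated cells. Every differentiated library was far below every other library, and the 3 stages did not overlap. Bdnf fell by 4.88 on the log2 scale under dbcAMP (SE 0.23, adjusted p = 4.21e-08), to 3.53% of its undifferentiated mean. After withdrawal it rose by 3.64 (SE 0.23, adjusted p = 8.63e-07). Its level was then still below that of undifferentiated cells. Dedifferentiated cells, in a medium of their own, held 43.8% of the undifferentiated mean, a log2 difference of -1.24 (SE 0.18, adjusted p = 0.000526). These 3 calls held in all 17 alternative analyses. Ntf3, which encodes NT-3, a ligand of TrkC that Schwann cells in other settings use as an autocrine survival factor, had 0 counts in all 9 libraries, which allows a level of up to 0.185 to 0.298 CPM depending on the library, from counting error alone.

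**Figure D2:**
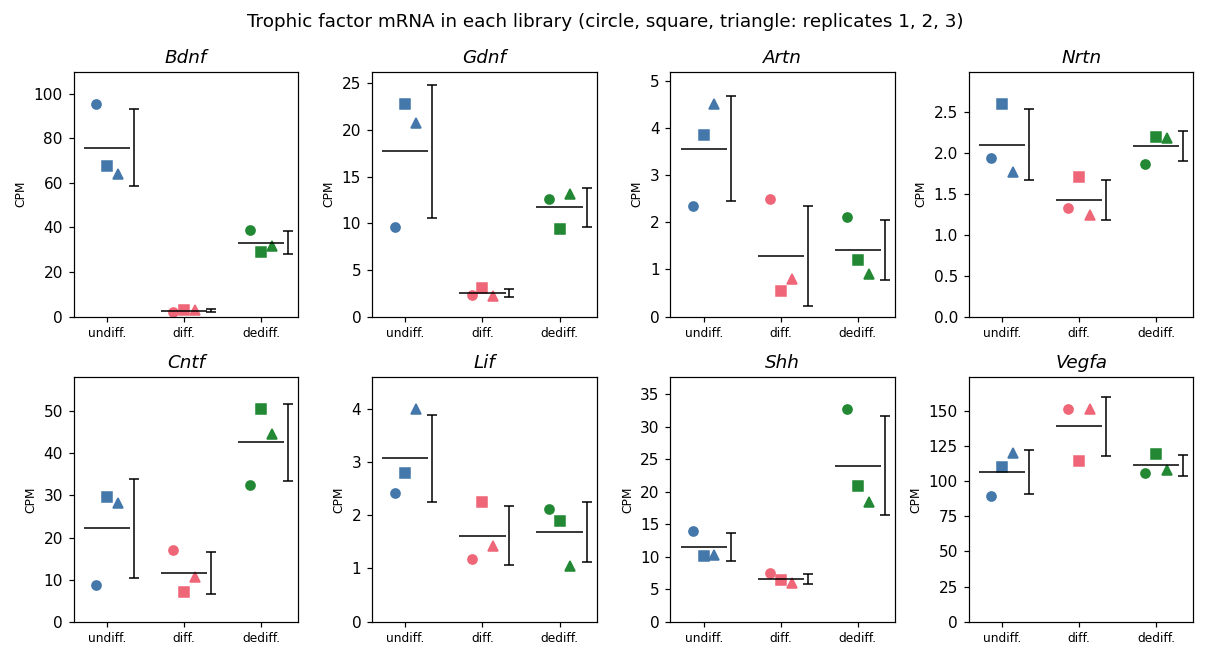
Level of the 8 detected genes in each of the 9 libraries, in CPM on a linear y axis from 0 for every gene; circles, squares and triangles are replicates 1, 2 and 3, lines are stage means and bars are 1 SD (n = 3). Bdnf and Gdnf are lowest in all differentiated libraries, Shh and Cntf are highest in all dedifferentiated libraries, and undifferentiated replicate 1 lies apart from the other undifferentiated libraries for Gdnf (9.59 CPM) and Cntf (8.70 CPM).

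The other neurotrophin genes and their receptors were read from a list of 19 genes, 17 of them tested. Of these, 8 rose and 8 fell under dbcAMP, against 31.7% and 27.9% of all tested genes. After withdrawal 6 rose and 5 fell, against 23.2% in each direction. In dedifferentiated compared with undifferentiated cells 5 were higher and 5 lower, against 16.1% and 13.3%. Their median log2 changes were 0.19, -0.07 and -0.07. Ntf4 had at most a trace, 0.0331 CPM on average in dedifferentiated cells, and was not tested. Ngfr, which encodes the p75 receptor and marks immature and repair Schwann cells, fell from 4423 to 1148 CPM (log2 change -2.01, adjusted p = 8.05e-07) and rose to 3722 (1.71, adjusted p = 6.37e-06).

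Genes for Trk receptors of BDNF and NT-3 rose under dbcAMP, where Bdnf fell, but only Ntrk2 was called lower after withdrawal. The change of Ntrk3 after withdrawal was -0.37 (adjusted p = 0.0617), and its libraries overlapped. Ntrk3 (TrkC) rose from 13.4 to 57.2 CPM under dbcAMP (log2 change 2.02, adjusted p = 1.49e-06), and its 43.9 CPM in dedifferentiated cells remained above the undifferentiated level (1.66, adjusted p = 2.9e-05). Ntrk2 (TrkB), the receptor of BDNF, averaged 3.33, 79.3 and 13.9 CPM across the stages; it rose by 4.50 (SE 0.61, adjusted p = 9.54e-05) and fell by 2.49 (SE 0.53, adjusted p = 0.00299). Its differentiated libraries ranged from 30.9 to 121 CPM, a wide spread, but none overlapped another stage. Counts per gene do not separate the kinase forms of these receptors from the truncated ones.

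Genes for proneurotrophin processing and sorting were mixed. Furin, a protease that cleaves proneurotrophins, fell from 424 to 123 CPM (log2 change -1.85, adjusted p = 5.3e-08) and rose to 274 (1.17, adjusted p = 3.29e-06). Pcsk6, a related convertase, fell from 24.3 to 2.06 CPM (-3.58, adjusted p = 6.7e-06) and rose to 27.6 (3.72, adjusted p = 1.16e-05). Maged1, an adaptor of p75, fell (-1.80, adjusted p = 2.78e-07) and stayed lower in dedifferentiated than in undifferentiated cells (-0.81, adjusted p = 0.000309). Sort1, which encodes sortilin, a sorting receptor and p75 partner, rose from 307 to 688 CPM (1.11, adjusted p = 1.63e-06), and it was still higher than at the start in dedifferentiated cells (0.85, adjusted p = 4.66e-05). The related Sorcs1 was also higher in dedifferentiated than in undifferentiated cells (2.52, adjusted p = 0.000151), while Sorcs2 was lower (-0.78, adjusted p = 0.000447) and fell on dedifferentiation (-0.97, adjusted p = 5.8e-05).

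Among the GDNF family ligands, Gdnf, a survival factor for motor neurons and for a class of sensory neurons, followed the pattern of Bdnf. Its level was 9.59, 22.8 and 20.7 CPM in undifferentiated replicates 1, 2 and 3, then 2.28, 3.01 and 2.22 in the differentiated and 12.6, 9.35 and 13.2 in dedifferentiated cells. All differentiated libraries were below all others, whereas undifferentiated replicate 1 lay within the dedifferentiated range. Gdnf fell by 2.88 under dbcAMP (SE 0.31, adjusted p = 1.86e-05), to 14.2% of its undifferentiated mean, and rose by 2.24 after withdrawal (SE 0.32, adjusted p = 0.000233); both calls held in all 17 alternatives. Dedifferentiated cells were not called different from undifferentiated cells (-0.63, SE 0.28, adjusted p = 0.112). Without undifferentiated replicate 1 they were called lower, at -0.92 with an adjusted p of 0.0047. The Gdnf gene overlaps a lncRNA gene in the RefSeq annotation, and whether the counting used strand is not stated, so its values may include reads of that neighbour.

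Artn, which encodes artemin, a ligand for sensory and sympathetic neurons, was low. It was at 2.34, 3.85 and 4.52 CPM in undifferentiated, 2.51, 0.54 and 0.802 in the differentiated and 2.12, 1.19 and 0.903 in dedifferentiated replicates 1, 2 and 3. Differentiated replicate 1 was above undifferentiated replicate 1, so these stages overlapped. Artn fell by 1.53 under dbcAMP (SE 0.54, adjusted p = 0.0301), a call that did not hold in 4 of the 6 analyses that each left out a library. Its adjusted p was 0.064 without undifferentiated replicate 2, 0.0974 without undifferentiated replicate 3, 0.0956 without differentiated replicate 2 and 0.106 without differentiated replicate 3, with log2 changes of -1.50, -1.33, -1.17 and -1.26. The change from differentiated to dedifferentiated cells was 0.14 (SE 0.58, adjusted p = 0.857). Dedifferentiated libraries all lay below the undifferentiated ones, with a change of -1.39 that was not called (SE 0.54, adjusted p = 0.0801).

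Nrtn, which encodes neurturin, a ligand for parasympathetic and some sensory neurons, was at 1.93, 2.60 and 1.77 CPM in undifferentiated, 1.33, 1.70 and 1.23 in the differentiated and 1.87, 2.19 and 2.18 in dedifferentiated replicates 1, 2 and 3. The differentiated libraries were the lowest, yet no comparison was called. The log2 changes were -0.62 (SE 0.31, adjusted p = 0.105) under dbcAMP, 0.56 (SE 0.31, adjusted p = 0.156) after withdrawal and -0.05 (SE 0.30, adjusted p = 0.915) between the end and the start. The gene had 18 to 29 counts per library.

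The co-receptor genes Gfra1, Gfra2 and Gfra3 all fell under dbcAMP. For Gfra3 the change was -1.54 (SE 0.43, adjusted p = 0.0102), and undifferentiated and differentiated libraries overlapped. From a list of 11 genes of the pathway, 8 were tested. Under dbcAMP 3 rose and 5 fell, against 31.7% and 27.9% of all tested genes. After withdrawal 4 rose and 2 fell, against 23.2% in each direction. At the end 2 were higher and 4 lower than at the start, against 16.1% and 13.3%. Median log2 changes were -1.04, 0.44 and -0.37. Gfra1, the co-receptor of GDNF, averaged 1948, 365 and 1320 CPM across the stages, with changes of -2.48 (SE 0.10, adjusted p = 1.33e-08) and 1.87 (SE 0.10, adjusted p = 2.46e-07), and was lower at the end than at the start (-0.61, adjusted p = 0.000715). Gfra2, which binds neurturin, fell from 266 to 111 CPM (-1.31, adjusted p = 0.000125), and Gfra3, which binds artemin, rose from 55.8 to 267 CPM on dedifferentiation (2.27, adjusted p = 0.00184). Sdc3, a heparan sulfate proteoglycan that binds GDNF, was lower at the end than at the start (-0.53, adjusted p = 0.0071). Ret, the signalling kinase, was near the detection limit, at mean levels of 0.740, 0.112 and 0.338 CPM, and did not pass the filter. Neither did the ligand Pspn, at 0.113 to 0.295 CPM. Ncam1, an alternative GDNF receptor, rose under dbcAMP (0.58, adjusted p = 0.0291) and fell afterwards (-0.79, adjusted p = 0.00917).

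Genes of the DOK adaptors, which dock on activated RET and other kinases, diverged. Dok4 rose from 6.12 to 85.7 CPM (log2 change 3.75, adjusted p = 5.26e-09), fell to 35.7 (-1.25, adjusted p = 9.23e-06) and stayed higher than at the start (2.50, adjusted p = 7.99e-07). Dok6 rose from 0.777 to 9.57 CPM (3.54, adjusted p = 1.86e-05). Dok5 fell from 9.97 to 0.512 CPM (-4.32, adjusted p = 2.77e-06) and rose to 3.45 (2.73, adjusted p = 0.000223).

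**Figure D3:**
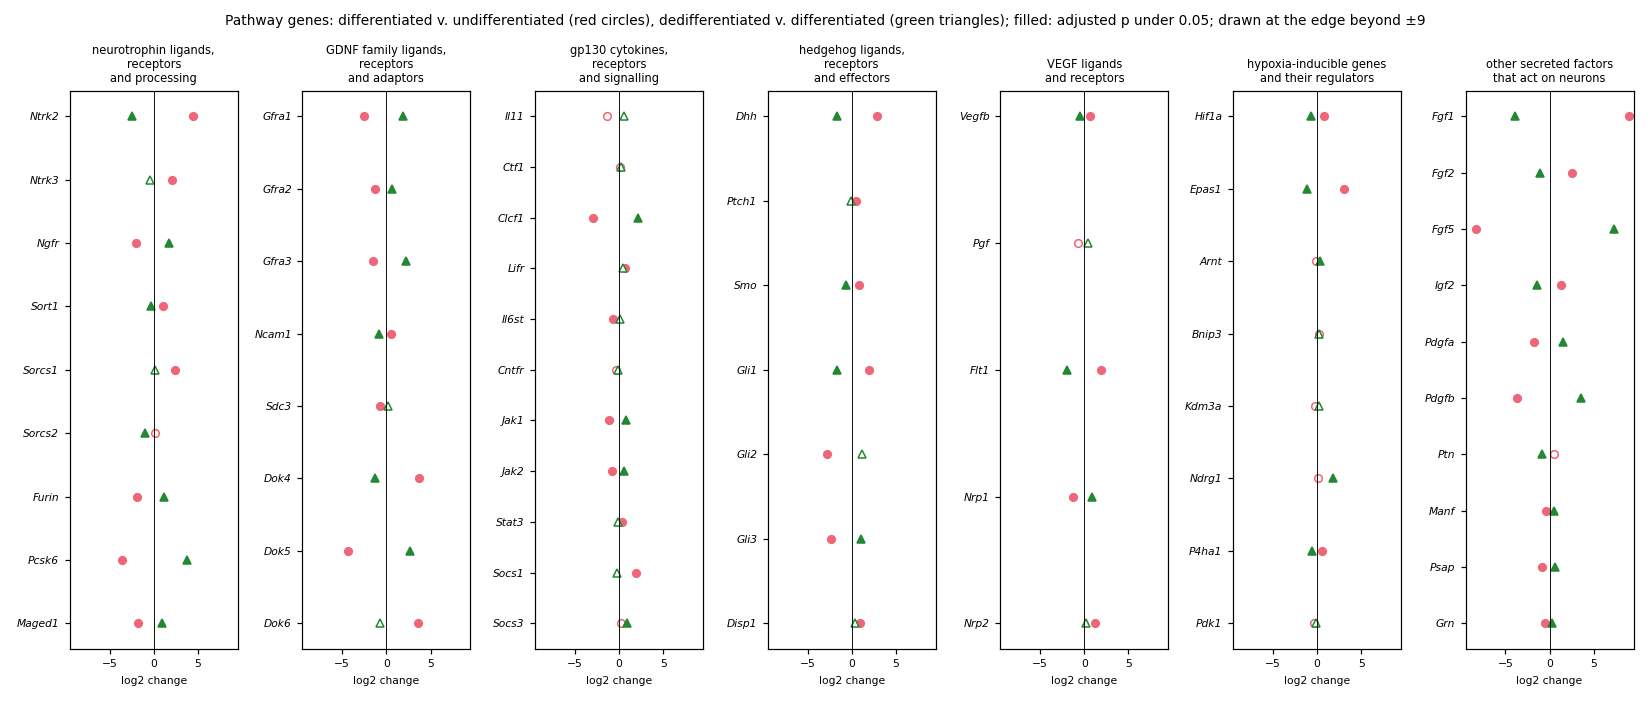
Log2 changes (x axis) of the tested genes named in the text from 7 pathway lists, for differentiated against undifferentiated (red circles) and dedifferentiated against differentiated (green triangles) cells; filled symbols passed an adjusted p under 0.05 and values past the axis limit are drawn at its edge. Bdnf-like opposite pairs appear for Ngfr, Furin, Gfra1, Clcf1 and Fgf5, and mirror-image pairs for Dhh, Dok4 and Fgf1; the fitted change of Fgf1, at 0 in undifferentiated cells, depends on the prior count.

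Of the gp130 cytokines, Cntf, which adult myelinating Schwann cells are known to express, was highest after withdrawal. Its level was 8.70, 29.7 and 28.1 CPM in undifferentiated, 17.0, 7.18 and 10.7 in the differentiated and 32.6, 50.5 and 44.7 in dedifferentiated replicates 1, 2 and 3. The dedifferentiated libraries were above all others, and undifferentiated and differentiated libraries overlapped because undifferentiated replicate 1 was low and differentiated replicate 1 high. Cntf rose by 1.88 on dedifferentiation (SE 0.41, adjusted p = 0.00385). Within the sequencing project that holds replicates 1 and 2 the change was 1.78 with an adjusted p of 0.0647. The change under dbcAMP was -0.98 and was not called (SE 0.41, adjusted p = 0.0628). It was called without undifferentiated replicate 1 (-1.35, adjusted p = 0.00272) and without differentiated replicate 1 (-1.36, adjusted p = 0.0245). The end against the start gave 0.90 (SE 0.40, adjusted p = 0.116).

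Lif, a cytokine induced in Schwann cells after injury, was low: 2.42, 2.79 and 3.99 CPM in undifferentiated, 1.18, 2.24 and 1.42 in the differentiated and 2.12, 1.89 and 1.05 in dedifferentiated replicates 1, 2 and 3. Undifferentiated libraries were the highest, and the other stages overlapped. Lif fell under dbcAMP, with a log2 change of -0.997 (SE 0.37, adjusted p = 0.0364). The log2 change was 0.08 after withdrawal (SE 0.39, adjusted p = 0.885) and -0.92 between end and start (SE 0.37, adjusted p = 0.0888, not called). Like that of Artn, the call under dbcAMP did not hold in 4 of 6 analyses with a library left out. The adjusted p was 0.0511 without undifferentiated replicate 2 (log2 change -1.09), 0.146 without undifferentiated replicate 3 (-0.78), 0.109 without differentiated replicate 1 (-0.83) and 0.109 without differentiated replicate 3 (-0.90).

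In the gp130 list of 21 genes, 16 were tested. Under dbcAMP 3 rose and 5 fell, against 31.7% and 27.9% of all tested genes. After withdrawal 7 rose and 1 fell, against 23.2% in each direction. At the end 4 were higher and 3 lower, against 16.1% and 13.3%. Median log2 changes were -0.26, 0.39 and 0.07. Clcf1, a CNTF receptor ligand, moved like Bdnf, with means of 97.4, 12.7 and 58.0 CPM (-3.00, adjusted p = 5.15e-06, then 2.20, adjusted p = 9.5e-05). Il11 was at 3.25, 1.31 and 1.93 CPM and Ctf1 at 1.88, 2.12 and 2.40, with no comparison called; Il6, Osm and Ebi3 were at 0.399 CPM or less and not tested. Cntfr, the CNTF-binding receptor, was at 17.5, 15.0 and 13.9 CPM with no call. Lifr, the LIF receptor, was higher in differentiated (0.73, adjusted p = 0.0392) and in dedifferentiated (1.14, adjusted p = 0.01) than in undifferentiated cells, while Il6st, which encodes gp130, was lower in both (-0.69, adjusted p = 9.36e-05, and -0.58, adjusted p = 0.00104). Jak1 and Jak2, kinases of the pathway, fell under dbcAMP (-1.12 and -0.77, adjusted p = 3.06e-06 and 0.000108) and rose afterwards (0.78 and 0.58, adjusted p = 9.13e-05 and 0.00128); Jak1 was still lower at the end than at the start (-0.34, adjusted p = 0.0207). Socs3, a feedback inhibitor that cytokine signalling induces, rose on dedifferentiation (0.92, adjusted p = 0.00458). Stat3 (0.38, adjusted p = 0.00174) and Socs1 (1.94, adjusted p = 0.0073) rose under dbcAMP.

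Shh, a hedgehog ligand reported as an injury-induced signal of Schwann cells, ended above its starting level. It was at 13.9, 10.2 and 10.3 CPM in undifferentiated, 7.44, 6.41 and 5.92 in the differentiated and 32.7, 20.9 and 18.4 in dedifferentiated replicates 1, 2 and 3. The 3 stages did not overlap. Shh fell by 0.87 under dbcAMP (SE 0.25, adjusted p = 0.0107), rose by 1.88 after withdrawal (SE 0.24, adjusted p = 0.000123) and was 1.01 higher at the end than at the start (SE 0.23, adjusted p = 0.0082), 209% of the undifferentiated mean. It was the only gene of the set called higher in dedifferentiated than in undifferentiated cells, and its 3 calls held in every alternative, except the fall where a log2 change above 1 was also required. Like Gdnf, Shh overlaps a lncRNA gene in RefSeq and may include its reads.

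The Schwann cell hedgehog ligand, Dhh, which instructs the perineurial sheath, showed the reverse. Its mean was 82.7, 618 and 201 CPM across the stages, a rise of 2.84 (SE 0.10, adjusted p = 5.25e-09) and a fall of 1.61 (SE 0.09, adjusted p = 5.03e-07), and it too was higher at the end than at the start (1.23, adjusted p = 6.99e-06). Of 17 genes in the hedgehog list, 10 were tested and 5 are not analysed here (Boc, Gas1, Scube2, Hhat, Kif7). Under dbcAMP 6 rose and 2 fell, against 31.7% and 27.9% of all tested genes. After withdrawal 1 rose and 3 fell, against 23.2% in each direction. At the end 3 were higher and 3 lower, against 16.1% and 13.3%. Median changes were 0.69, -0.24 and 0.20. Gli1, a target and effector of the pathway, rose from 1.30 to 5.10 CPM (1.93, adjusted p = 0.000864) and fell to 1.56 (-1.68, adjusted p = 0.00282), and Smo, the signal transducer, rose and fell as well (0.84, adjusted p = 0.000468; -0.67, adjusted p = 0.00294). Gli2 and Gli3, the other effectors, fell under dbcAMP (-2.77, adjusted p = 0.00207, and -2.37, adjusted p = 3.1e-05). Gli3 rose afterwards (1.11, adjusted p = 0.00882). Disp1, needed to release the ligands, rose (0.94, adjusted p = 0.00248) and stayed higher at the end (1.30, adjusted p = 0.000906). Ptch1, the receptor and a target, rose under dbcAMP (0.54, adjusted p = 0.017), where Shh fell. Its change after withdrawal, where Shh rose, was -0.04 (adjusted p = 0.859). Ptch1 was thus higher at the end than at the start (0.50, adjusted p = 0.0459). Ihh was at 0.160 CPM or less and was not tested.

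Vegfa, which encodes the main angiogenic growth factor, varied least. Its level was 89.4, 110 and 120 CPM in undifferentiated, 151, 114 and 151 in the differentiated and 106, 119 and 108 in dedifferentiated replicates 1, 2 and 3. Differentiated replicate 2 lay among the undifferentiated libraries, so the stages overlapped. The rise under dbcAMP was 0.33 (SE 0.13, adjusted p = 0.0449) and did not hold in 12 of 17 alternatives, among them DESeq2's Wald test (0.30, adjusted p = 0.0606) and the fit with the replicate number as a block (0.33, adjusted p = 0.0536). It also did not hold without undifferentiated replicate 1 (0.23, adjusted p = 0.139), undifferentiated replicate 2 (0.32, adjusted p = 0.102), differentiated replicate 1 (0.25, adjusted p = 0.145) or differentiated replicate 3 (0.27, adjusted p = 0.138). The change after withdrawal was -0.31 (SE 0.13, adjusted p = 0.0676); without differentiated replicate 2 it was -0.44 and called (adjusted p = 0.0123). End and start differed by 0.02 (SE 0.13, adjusted p = 0.935).

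Of the 9 other VEGF ligand and receptor genes, 5 were tested, with median changes of 0.62, 0.19 and -0.07. Under dbcAMP 3 rose and 1 fell, against 31.7% and 27.9% of all tested genes. After withdrawal 1 rose and 2 fell, against 23.2% in each direction. At the end 1 was higher and 0 were lower, against 16.1% and 13.3%. There Nrp1 alone had a negative change past an unadjusted threshold of 0.05 in edgeR (-0.35, adjusted p = 0.0508). Vegfb rose (0.62, adjusted p = 0.00484) and fell (-0.52, adjusted p = 0.0164). Pgf was at 1.59, 1.03 and 1.37 CPM with no call, and Vegfc and Vegfd were at 0.789 CPM or less. Flt1, a VEGF receptor, rose from 0.414 to 1.60 CPM (1.92, adjusted p = 0.0171) and fell again (-1.998, adjusted p = 0.02), and Kdr, the main signalling receptor, was at 0.366 CPM or less. The neuropilin co-receptors moved apart: Nrp1 fell (-1.25, adjusted p = 9.63e-06) and rose (0.90, adjusted p = 0.000213), whereas Nrp2 rose from 42.5 to 102 CPM (1.20, adjusted p = 0.000129) and was at 115 at the end (1.39 above the start, adjusted p = 0.000167).

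Since hypoxia-inducible factors drive Vegfa, 13 genes of that response were read, 11 of them tested. Under dbcAMP 3 rose and 0 fell, against 31.7% and 27.9% of all tested genes. After withdrawal 2 rose and 3 fell, against 23.2% in each direction. At the end 3 were higher and 1 lower, against 16.1% and 13.3%. Median changes were -0.08, 0.26 and 0.21. Under dbcAMP those called were Hif1a (0.81, adjusted p = 5.46e-06) and Epas1 (3.10, adjusted p = 4.24e-06), which encode subunits of the factors, and P4ha1 (0.51, adjusted p = 0.00125), a collagen hydroxylase; of the genes with a negative change, only Kdm3a passed an unadjusted threshold of 0.05 in edgeR (-0.26, adjusted p = 0.0714). All 3 fell after withdrawal (-0.70, -1.09 and -0.61, adjusted p = 3.43e-05, 0.00507 and 0.000681). Ndrg1, an inducible gene that myelinating Schwann cells also use, went from 349 to 1225 CPM on dedifferentiation (1.82, adjusted p = 2.68e-06), and Arnt, the partner subunit, rose (0.37, adjusted p = 0.00447). Bnip3 was higher (0.42, adjusted p = 0.00991) and Pdk1 lower (-0.49, adjusted p = 0.0451) at the end than at the start.

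Other factors with actions on neurons or glia gave 16 genes, 10 of them tested. Under dbcAMP 3 rose and 6 fell, against 31.7% and 27.9% of all tested genes. After withdrawal 6 rose and 4 fell, against 23.2% in each direction. At the end 2 were higher and 3 lower, against 16.1% and 13.3%. Median changes were -0.51, 0.38 and -0.22. Fgf5 had a wider range than Bdnf, with means of 179, 0.608 and 88.8 CPM (-8.35, adjusted p = 6.61e-08, then 7.28, adjusted p = 5.03e-07). Pdgfb fell from 24.8 to 1.96 CPM and returned to 23.0 (-3.69, adjusted p = 6.17e-08, then 3.54, adjusted p = 2.49e-07). Pdgfa fell and rose too (-1.80, adjusted p = 6.03e-07, then 1.52, adjusted p = 5.34e-06). Psap and Grn, which encode the lysosomal and secreted proteins prosaposin and progranulin, fell (-0.86 and -0.57, adjusted p = 8.43e-06 and 7.1e-05) and rose (0.58 and 0.29, adjusted p = 0.000269 and 0.00982). Manf fell and rose by less (-0.44 and 0.47, adjusted p = 0.0396 and 0.0384). In the other direction, Fgf1 was at 0 in every undifferentiated library and averaged 26.1 CPM in differentiated cells, at least 90.6-fold higher than 3 counts of the shallowest undifferentiated library, and 1.69 CPM in dedifferentiated cells. Fgf2 rose (2.58, adjusted p = 0.000122) and fell (-1.11, adjusted p = 0.017), as did Igf2 (1.32, adjusted p = 0.00645, then -1.40, adjusted p = 0.00712). Ptn fell on dedifferentiation (-0.84, adjusted p = 0.0223). Fgf9, Igf1, Hgf, Mdk, Cdnf and Epo did not pass the filter; Epo was at 0 throughout.

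For each tested gene, the 3 genes with the most similar profile over the 9 libraries were found by Pearson correlation of log2 CPM with a prior count of 2. The libraries form 3 stages, so a high r mostly reflects a shared order of the stages, and it is given as a description. For Bdnf these were Cep120 (r = 0.996), Chmp4c (0.996) and Map1a (0.995), and for Gdnf Acadvl (0.995), Gtdc1 (0.994) and Fam227a (0.987). Map1a, a microtubule-associated protein gene, averaged 1463, 217 and 966 CPM across the stages. Shh was most like Edem3 (0.980), Csrnp3 (0.972) and Grin2b (0.971), and Cntf like Xkr4 (0.975), Ap3b1 (0.957) and Rab7b (0.952). Grin2b, a glutamate receptor subunit gene, was at 10.1, 4.16 and 19.6 CPM, the order seen for Shh. Artn was closest to Gria2 (0.961), N4bp1 (0.917) and LOC257650 (0.915), Lif to RGD1560289 (0.957), Trim41 (0.945) and Cspp1 (0.942), and Nrtn to Mdm2 (0.951), Luc7l (0.951) and LOC690276 (0.941). Vegfa had the least close matches, LOC500124 (0.911), Lyrm9 (0.905) and RGD1309594 (0.898).

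**Figure D4:**
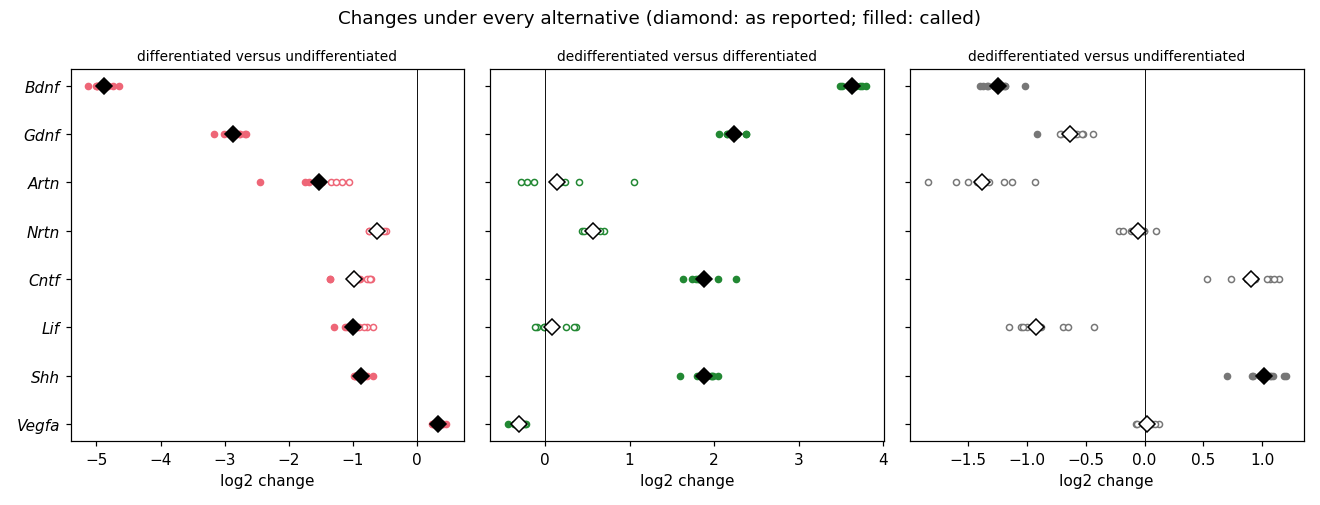
Log2 change (x axis) of each tested gene in each alternative analysis, 1 panel per comparison, with the reported value as a diamond; filled symbols were called under the rule of that analysis. All symbols of Bdnf are filled in the 3 panels, whereas those of Artn, Lif and Vegfa change between filled and open in the first panel, where Artn ranges from -2.44 to -1.07.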

How the data were processed

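The deposited values are estimated counts per gene, which the authors made with salmon as the table's name states; annotation, genome build and use of strand are not given in the sources used here. The submitters' processing notes list Trim Galore, cutadapt, STAR, HISAT2, Salmon and DESeq2 1.26.0 with no role. Libraries were made with a directional kit, per the labels' protocols. The vesicle miRNA and lncRNA tables of the series were not used here.

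Columns were matched to samples by library code and stage, and replicate numbers follow the sample titles, with which a suffix in the column names disagrees. No pair of libraries was identical. No label ties libraries of the same number to a common culture. Deviations from the stage mean had a mean correlation of 0.175 between libraries of equal number and -0.0837 between others. Deviations within a stage sum to 0, which ties the second value to the first, so it is not a separate reference. Between libraries of equal number the correlation was over 0.1 in all 3 pairs of undifferentiated and differentiated libraries (0.234 to 0.304). Over all stages it was over 0.1 in 7 of 9 such pairs, with a minimum of 0.028. Libraries of equal number thus shared some deviation. The fit without a replicate block was kept because the labels state no pairing, and the blocked value is given where it changes a call. The 1.15% of values that were fractional were rounded. Counts were tested with edgeR 4.0.16 (R 4.3.3): filterByExpr with a minimum count of 10, TMM scaling and a quasi-likelihood fit of all 9 libraries by stage, without covariates. The standard error is the log2 change divided by the square root of F. The code was tested on simulated data.

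The genes and pathway lists were chosen with earlier results of these data known. All 9 factors are named. Of each list, every other ligand is named, and up to 3 genes called higher and 3 called lower per comparison by smallest p; certain genes that this rule takes are counted but not reported by name. List genes with no row in the table (Il27, Egln1, Foxd3 and 5 hedgehog genes) were not analysed here; Bex3 and Vegfd were read under the older symbols Ngfrap1 and Figf.

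Alternatives were DESeq2 1.42.0 (size factors, Wald test), other scalings and filters, the replicate block, the sequencing project, fits of only the stages compared, leaving out each library, and an added limit of 1 on the log2 change.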

Additional observations from a re-analysis of the deposited data

How the results depend on the processing

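Of 405 alternative values of the 8 tested genes over 3 comparisons, 360 kept direction and side of the threshold, 25 lost a call, 7 gained one and 13 changed sign, all 13 of them in changes that were not called. Within sequencing project 9987 (replicates 1 and 2), 3 factor genes were called under dbcAMP in place of 6, with Artn at -1.07 (adjusted p = 0.264) and Lif at -0.68 (adjusted p = 0.276); over all genes, 4358 were called under dbcAMP, 2606 after withdrawal and 1283 between end and start, in place of 6179, 4809 and 3045, with fewer samples in the fit. Project 11026 holds 1 library per stage, so no fit was made within it. With a log2 change above 1 also required, 3 factor genes and 2569 genes were called under dbcAMP, 1613 genes after withdrawal and 992 between end and start. Leaving out a library gave 3 to 6 factor genes called under dbcAMP, with 3 without undifferentiated replicate 2 and 3 without differentiated replicate 3, where 5558 to 6049 of all genes were called in these fits. The leave-one-out changes that crossed 0 were those after withdrawal for Lif (-0.12 to 0.37) and Artn (-0.28 to 1.06), and those between end and start for Vegfa (-0.0764 to 0.0904) and Nrtn (-0.19 to 0.10); the cause was not tested. Vegfa between end and start was -0.0146 with DESeq2's size factors, -0.0146 with its Wald test and -0.0024 with no filter. Artn between end and start was called with the Wald test (-1.42, adjusted p = 0.0476) and with only the stages compared in the fit (-1.39, adjusted p = 0.0385), and Cntf under dbcAMP with no filter (-1.01, adjusted p = 0.0369). With the replicate block, 5, 4 and 2 factor genes were called in the 3 comparisons, in place of 6, 4 and 2, the lost call being Vegfa under dbcAMP (0.33, adjusted p = 0.0536), and 6325, 5031 and 3256 genes; no other call of a factor gene changed. With library size alone the median change of all genes under dbcAMP was 0.11, in place of 0.05. Artn, Lif and Nrtn rest on 7 to 69 counts per library.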
